A study of Mus musculus with 45 samples.

Results

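Livers of mice fed a high-cholesterol diet (HCD) with an extract of the medicinal mushroom Ganoderma lucidum, Gl-2, were compared with livers of mice fed the same diet with simvastatin (Sim), across all genes of the deposited table. The comparison takes 6 of the 45 arrays of the series, which are the 3 liver arrays labelled HCD+Gl-2 and the 3 labelled HCD+Sim, and the table lists 22080 genes. Every mouse was a male C57BL/6 animal, 7 weeks old, housed 4 to a cage, on AIN-93 food with 0.5% cholesterol, and tissue was taken at day 43 after 8 h without food or water. The HCD+Gl-2 food held 1.0% of a lyophilized hydroalcoholic extract (32% by volume) of fruiting bodies grown on oak sawdust with 10 mM acetylsalicylic acid, and the HCD+Sim food held simvastatin at 0.03% by weight. Of the remaining liver groups, HCD had the cholesterol diet alone, HCD+Gl-1 the diet with an extract of fruiting bodies grown without acetylsalicylic acid, and Control plain AIN-93 food. Neither compared group lacked cholesterol in the diet. Each group of 8 mice was measured as pooled RNA: pool A held 4 mice, pool B the other 4, and pool C was stated to be a mix of both, which leaves 2 independent pools behind the 3 arrays of each group, and no single mouse was measured.

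Simvastatin is a statin, a class of drugs that block cholesterol synthesis in the liver. Hepatocytes that run short of sterol respond through SREBP-2, a transcription factor that raises the genes of sterol synthesis, and excess dietary cholesterol lowers the same genes. The liver also clears foreign compounds through cytochrome P450 enzymes, of which the Cyp2b genes are known targets of the nuclear receptors CAR and PXR, and it holds resident immune cells whose MHC class II genes respond to interferon gamma.

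The tissue label was checked against hepatocyte genes, since one free-text line of the labels names brain for these arrays. Albumin (Alb) lay between 13.69 and 13.78 on the log2 scale in all 15 liver arrays, against 5.87 to 7.74 in brain and 7.63 to 7.95 in kidney, so the arrays carried liver RNA. Array medians of all 45 arrays ran from 6.76 to 6.92, and arrays of the same group correlated across genes at 0.991 to 0.994 in both HCD+Gl-2 and HCD+Sim. Values are log2 signals, so a difference of 1 is a doubling, and each gene is compared with itself across arrays, never with another gene.

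Between HCD+Gl-2 and HCD+Sim livers 63 genes differed, 0.285% of those tested, by limma with an absolute log2 fold change over 0.7 and a Benjamini-Hochberg adjusted p of at most 0.05 (DE genes). Of these, 27 were higher under Gl-2 (0.122%) and 36 were lower (0.163%). The lower genes included the drug-metabolising gene Cyp2b9, genes of MHC class II and interferon responses, digestive enzymes of the exocrine pancreas and contractile genes of skeletal muscle. The higher genes included immediate early transcription factors, heat shock genes and a set with roles in metabolism and the circadian clock. By adjusted p alone 289 genes passed, or 1.31%. In 36 of the 63 DE genes all 3 arrays of one group lay above all 3 of the other, namely 9 higher and 27 lower under Gl-2, while among all genes 3.45% had every Gl-2 array above and 9.17% every Gl-2 array below.

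**Figure D1:**
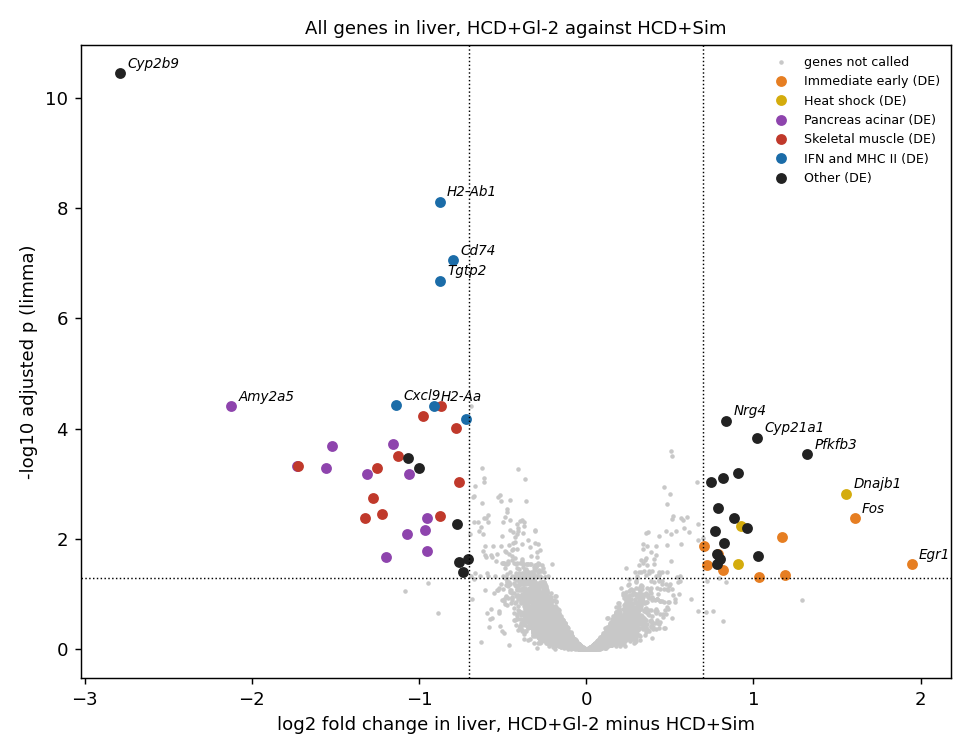
Log2 fold change in liver, HCD+Gl-2 minus HCD+Sim (x axis), against -log10 of the limma adjusted p (y axis) for every gene, with the 63 DE genes coloured by group and dotted lines at the thresholds. Cyp2b9 stands farthest left and highest, the interferon and MHC class II genes lie next in adjusted p, and immediate early and heat shock genes hold the largest positive fold changes at weaker adjusted p.

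How firmly a gene is called depended on where the spread was estimated. The 45-array fit pools liver with kidney and brain, and in 59 of the 63 DE genes the within-group spread was larger in liver, with a median SD of 0.38 against 0.139 in the other tissues. Fitted on the 15 liver arrays alone, 11 genes were DE, and 10 of them belong to the 63: Cyp2b9, H2-Ab1, Cd74, H2-Aa, Tgtp2, Cxcl9, Gbp2, BC023105, Xirp2 and Cyp21a1. With only the 6 compared arrays 6 genes were DE. Renewed quantile normalization over the liver arrays, fitted on those arrays alone, also gave 11. None of the 9 immediate early, 3 heat shock and 12 acinar DE genes was DE on the 15 liver arrays or on the 6 arrays alone. Of the 11 muscle DE genes Xirp2 alone was DE on the 15, at a dim liver mean of 4.59.

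**Figure D2:**
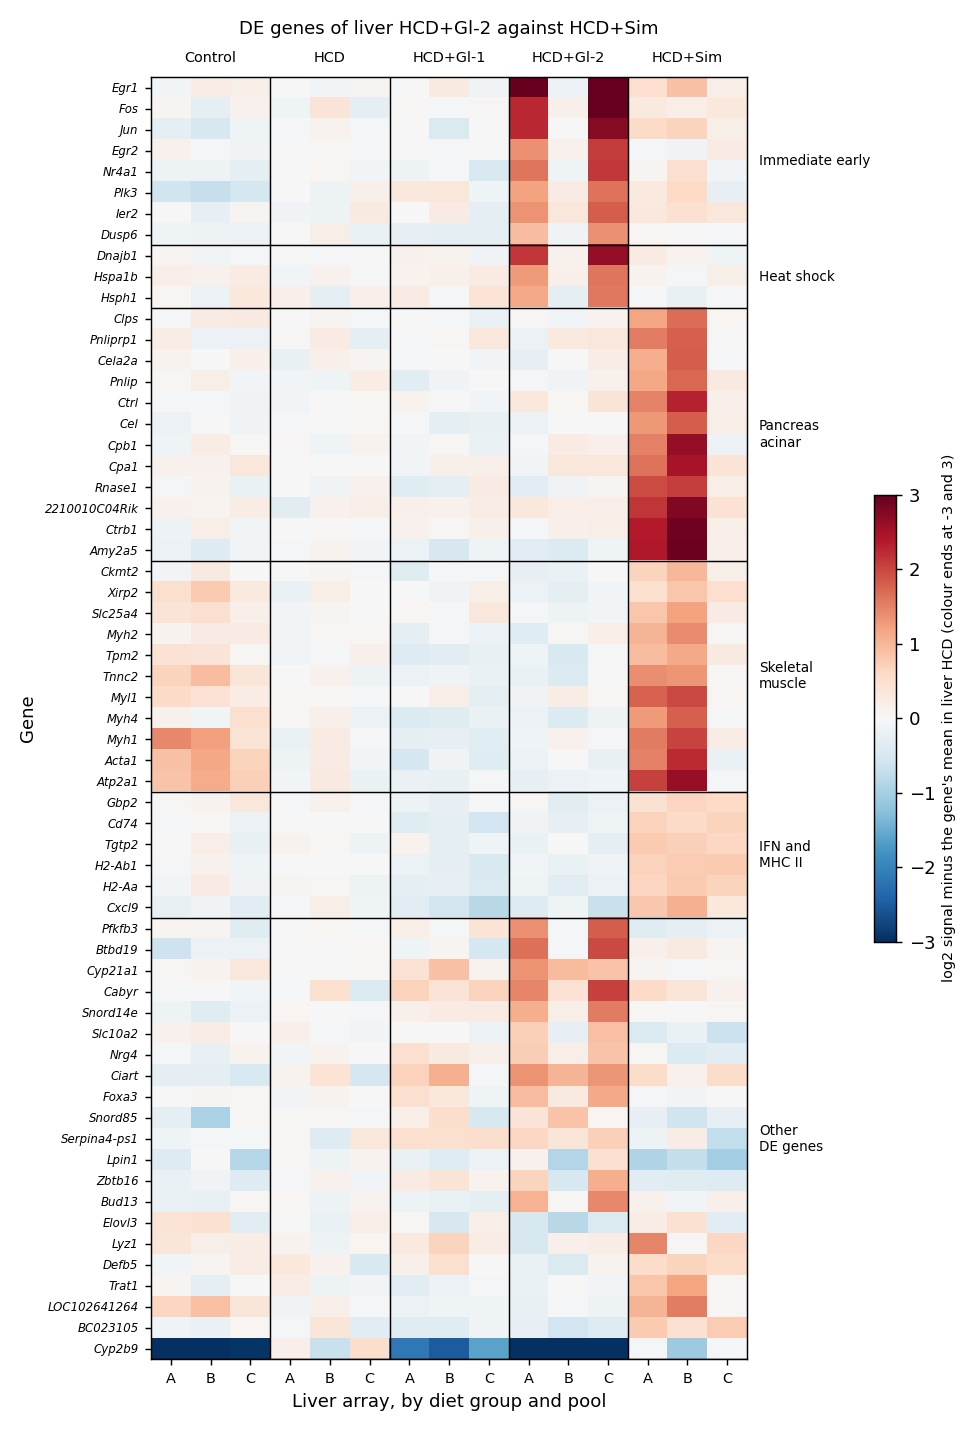
Log2 signal of 61 of the 63 DE genes (rows) in the 15 liver arrays (columns, by diet group and pool), minus the gene's mean in liver HCD. Red and blue mark values above and below that mean: immediate early and heat shock genes are high in Gl-2 pools A and C, acinar and muscle genes in Sim pools A and B (muscle genes in Control as well), and the interferon and MHC class II genes in all 3 Sim arrays.

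Cyp2b9, a cytochrome P450 gene of the liver, had the largest fold change of the 63. Its signal in the HCD+Gl-2 arrays was 5.34, 5.45 and 5.37 in pools A, B and C, and in the HCD+Sim arrays 8.53, 7.47 and 8.52. Every Gl-2 array lay more than 2 log2 units below every Sim array. The log2 fold change was -2.79 (SE 0.21, limma adjusted p = 3.66e-11), which is 6.90-fold lower under Gl-2. The HCD arrays were at 8.71, 7.88 and 9.08 and the Control arrays at 5.28, 5.17 and 5.62, so the simvastatin livers sat with HCD and the Gl-2 livers with Control. Against HCD the log2 fold change was -3.17 for Gl-2 (limma adjusted p = 6.39e-13) and -0.38 for simvastatin (limma adjusted p = 0.498). These comparisons share the HCD arrays. HCD+Gl-1 livers lay between, at a mean of 6.48.

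Its close relatives did not pass the test. Cyp2b10, the usual marker of CAR activity, differed by -0.07 with a 95% interval of -0.38 to 0.23, and Cyp2b13 by -0.38 with an interval of -0.78 to 0.02. Of 30 measured members of the xenobiotic P450 list, which also holds the heme synthesis gene Alas1, 19 were lower under Gl-2 (63.3%, against 60.5% of all genes). The list median was -0.04 beside -0.03 over all genes, and Cyp2b9 was the only DE member. Cyp2c38 (-0.69) and Alas1 (0.47), the first enzyme of heme synthesis, passed the adjusted p without the fold threshold. Probes of near-identical Cyp2b copies may share signal.

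Genes of MHC class II and of interferon responses were lower under Gl-2 than under simvastatin. H2-Ab1, the beta chain of a class II molecule, was at 8.71, 8.59 and 8.69 in HCD+Gl-2 and 9.49, 9.55 and 9.58 in HCD+Sim, a log2 fold change of -0.88 (SE 0.08, limma adjusted p = 7.75e-09). Cd74, the invariant chain that guides class II molecules, was at 9.68, 9.56 and 9.67 against 10.48, 10.37 and 10.45, or -0.80 (limma adjusted p = 8.83e-08). For both genes the gap between groups was several times the range within either group. H2-Aa, the class II alpha chain, gave -0.91 (limma adjusted p = 3.89e-05). Tgtp2, an interferon-induced GTPase, was at 7.49, 7.71 and 7.39 against 8.48, 8.41 and 8.31, or -0.87 (limma adjusted p = 2.1e-07). Cxcl9, a T cell chemokine induced by interferon gamma, was at 8.05, 8.31 and 7.78 against 9.26, 9.52 and 8.76, or -1.14 (limma adjusted p = 3.79e-05). Gbp2, a guanylate-binding protein, gave -0.72 (limma adjusted p = 6.55e-05). In all 6 genes the groups did not overlap, and all 6 were also DE on the 15 liver arrays alone.

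The difference lay on the simvastatin side of HCD. Against HCD, H2-Ab1 was at 0.75 under simvastatin (limma adjusted p = 3.92e-07) and -0.13 under Gl-2 (limma adjusted p = 0.562), Tgtp2 at 0.71 and -0.16, and Cd74 at 0.64 and -0.16. Of the 6 genes 4 were DE in HCD+Sim against HCD and 0 in HCD+Gl-2 against HCD, in tests that share the HCD arrays. They also reuse the Gl-2 and Sim arrays by which the 6 were chosen. Of 34 measured members of the interferon and MHC class II list (39 listed), 30 were lower under Gl-2 (88.2%, against 60.5% of all genes). The DE members numbered 6, all lower (0.163% of all genes). In 16 members every Gl-2 array was below every Sim array (9.17% of all genes). H2-Eb1 (-0.61), Igtp (-0.49) and Gbp3 (-0.41) were among those that passed the adjusted p without the fold threshold. Outside the list, BC023105 was at 7.79, 7.46 and 7.66 against 8.81, 8.49 and 8.80 (-1.06, limma adjusted p = 0.000335). Ly6a, a surface protein inducible by interferon, was at -0.69 and just missed the fold threshold. It was picked after its values were seen.

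**Figure D3:**
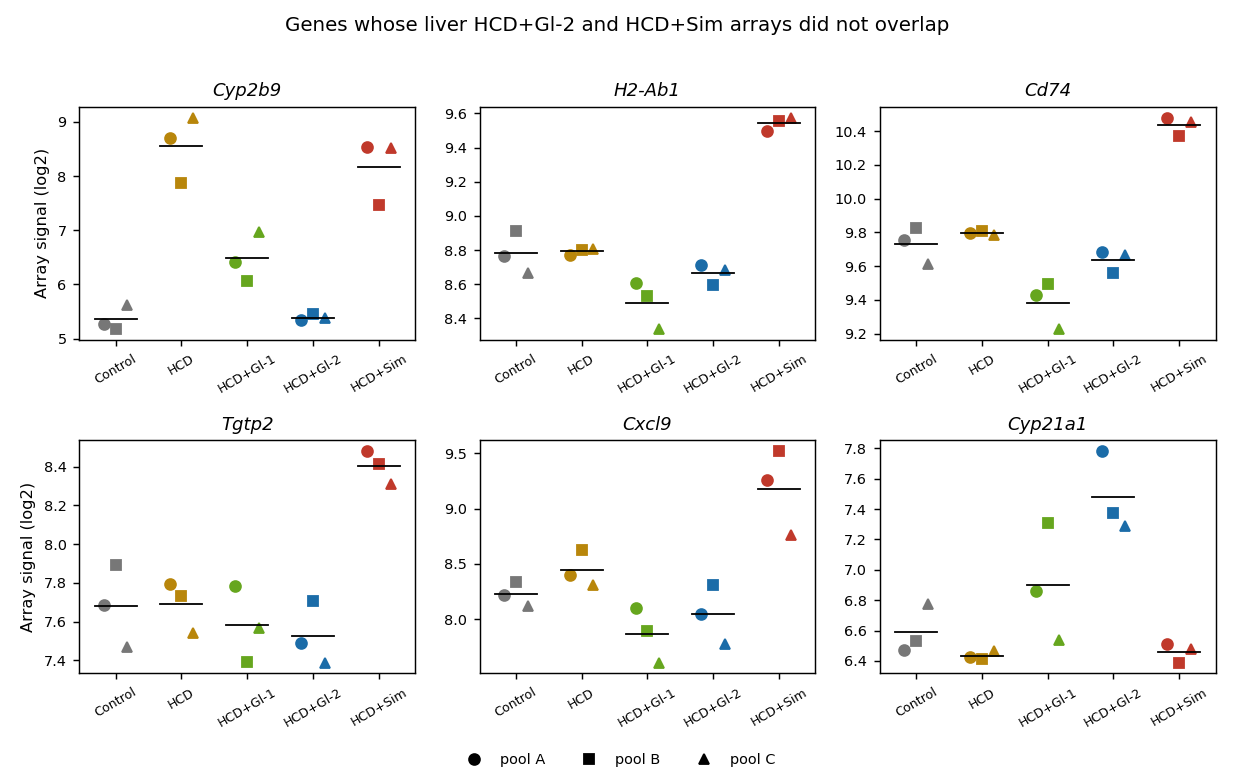
Log2 array signal (y axis) of 6 genes in the 15 liver arrays by diet group (x axis), with symbols for pools A, B and C and a line at each group mean. In each panel the 3 HCD+Gl-2 arrays and the 3 HCD+Sim arrays do not overlap: H2-Ab1, Cd74, Tgtp2 and Cxcl9 stand high in HCD+Sim alone, Cyp2b9 stands low in HCD+Gl-2 and Control, and Cyp21a1 stands high in HCD+Gl-2.

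In pooled whole-liver RNA, more cells of a type and more RNA per cell cannot be told apart. Markers of immune cells, only some of which carry class II molecules, were therefore read beside these genes. Over all genes 60.5% were lower under Gl-2, with a median of -0.03. The B and plasma cell markers (66.7% lower) and the T and NK cell markers (68.8%) lay near that share. Of 10 dendritic cell markers 9 were lower under Gl-2, with a median of -0.11 and 0 DE, and their median level relative to HCD ran from -0.05 to 0.06 in the Gl-2 arrays and from 0.04 to 0.27 in the Sim arrays. Of 9 B and plasma cell markers 6 were lower (median -0.08, 0 DE), with levels of 0.01 to 0.11 and 0.05 to 0.16. Of 16 T and NK cell markers 11 were lower (median -0.15), and Trat1 alone was DE, at a dim liver mean of 3.61. Of 15 Kupffer cell and macrophage markers 13 were lower, with a median of -0.16 and levels of -0.06 to 0.18 in Gl-2 and 0.07 to 0.35 in Sim. Within that list Lyz1, a lysozyme, was lower with overlapping groups (-0.74, limma adjusted p = 0.0393, and 0.0571 with the pool letter as a block). In the 2 higher members every Gl-2 array lay above every Sim array, and 1 of them was DE. Of the lower members 1 had every Gl-2 array below every Sim array. The part of immune cell number in the class II values was not tested.

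Promoter sequence of the interferon list was read from RefSeq (GRCm38.p6, 250 bases before to 50 after each start), which held 27 of the 34 measured genes. Both strands were searched for the core of the interferon-stimulated response element (ISRE), a GAAA that recurs after any 2 bases, and TTCNNNGAA, the interferon gamma activated site (GAS). The ISRE core occurred in 13 of the 27 genes (48.1%, against 3.99% of all 27025 symbols with a promoter), and the GAS in 9 (33.3%, against 9.55%). A match is a description of these letters only. The stretches of the 2 DE genes with an ISRE match are printed because both genes were lower under Gl-2 and both carry the element shortly before the start, with ISRE and GAS letters in capitals.
Gbp2, chr3:142620579-142620638, plus strand: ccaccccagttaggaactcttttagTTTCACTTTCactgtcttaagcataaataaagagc
Tgtp2, chr11:49064248-49064318, minus strand: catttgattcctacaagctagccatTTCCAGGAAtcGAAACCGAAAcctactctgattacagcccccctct
In Gbp2 the match begins 59 bases before the start and reads on the opposite strand, and in Tgtp2 the GAS begins 81 and the ISRE 70 bases before it. Of the other DE members with a promoter, Cxcl9 and H2-Aa had neither match within this window.

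Digestive enzymes of the pancreas were the largest block of lower genes, and they divided the simvastatin arrays. Amy2a5, a pancreatic amylase, was at 6.61, 6.53 and 6.82 in HCD+Gl-2 and at 9.34, 9.88 and 7.10 in HCD+Sim. Pools A and B of simvastatin were thus more than 2 log2 units above every Gl-2 array, and pool C lay just above the highest of them. The log2 fold change was -2.12 (SE 0.30, limma adjusted p = 3.89e-05), and -0.07 in kidney. Ctrb1, a chymotrypsinogen, followed the same course at 9.14, 9.69 and 6.95 in HCD+Sim against 6.73, 6.92 and 6.93 in HCD+Gl-2 (-1.73, limma adjusted p = 0.000483). Rnase1 (-1.52), the trypsinogen-like 2210010C04Rik (-1.55), Cpa1 (-1.31), Cpb1 (-1.2), Cel (-1.16) and Pnlip (-1.06), the pancreatic lipase, did likewise.

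Of 35 measured acinar markers (39 listed) 32 were lower under Gl-2 (91.4%, against 60.5% of all genes). The DE members numbered 12, all lower (0.163% of all genes), and the median was -0.53. In all 12 DE members the Sim pool C array lay below both other Sim arrays, and in 5 of them (Cpb1, Ctrl, Cela2a, Pnliprp1 and Clps) it lay inside or below the Gl-2 range, so the groups overlapped. The median level of the list relative to HCD was 0.61, 0.91 and 0.12 in Sim pools A, B and C and between -0.08 and 0.11 in the Gl-2 arrays. Relative to HCD, all 12 were DE under simvastatin and 0 under Gl-2. These tests reuse the Gl-2 and Sim arrays by which the 12 were chosen, so they are not independent of that choice. Of 16 islet markers of the pancreas 0 were DE and the median was 0.06. Without Sim pool B 7 of the 12 stayed DE, and without Sim pool C all 12 did.

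Skeletal muscle genes had the same array pattern at smaller size. Atp2a1, the calcium pump of fast muscle, was at 6.68, 6.75 and 6.81 in HCD+Gl-2 and at 8.98, 9.54 and 6.88 in HCD+Sim (-1.72, limma adjusted p = 0.000472). Acta1, skeletal actin, was at 7.30, 7.48 and 7.26 against 9.0, 9.73 and 7.28 (-1.32, limma adjusted p = 0.00421), with groups that overlapped through Sim pool C. The myosin genes Myh1 (-1.28), Myh4 (-1.25), Myl1 (-1.22) and Myh2 (-0.88) and the troponin gene Tnnc2 (-1.13) were also DE. Of 48 measured muscle markers 46 were lower under Gl-2 (95.8%, against 60.5% of all genes). The DE members numbered 11, all lower (0.163% of all genes), and the median was -0.33, or -0.20 without Sim pool B. Here the Control livers were not low: Acta1 stood at 8.36, 8.65 and 8.16 and Atp2a1 at 7.78, 8.04 and 7.65 in Control, above every HCD and Gl-2 array. Without Sim pool B 5 of the 11 remained DE. Tpm2, Ckmt2 and Slc25a4 completed the 11. Xirp2 had more even Sim arrays than Atp2a1, at 4.88, 5.22 and 4.90 against 4.22, 4.13 and 4.31. The list medians of both marker sets were highest in the same 2 Sim pools, and the source of these transcripts was not tested. LOC102641264, which is in neither list, had the same array order (-1.0), as did Trat1.

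**Figure D4:**
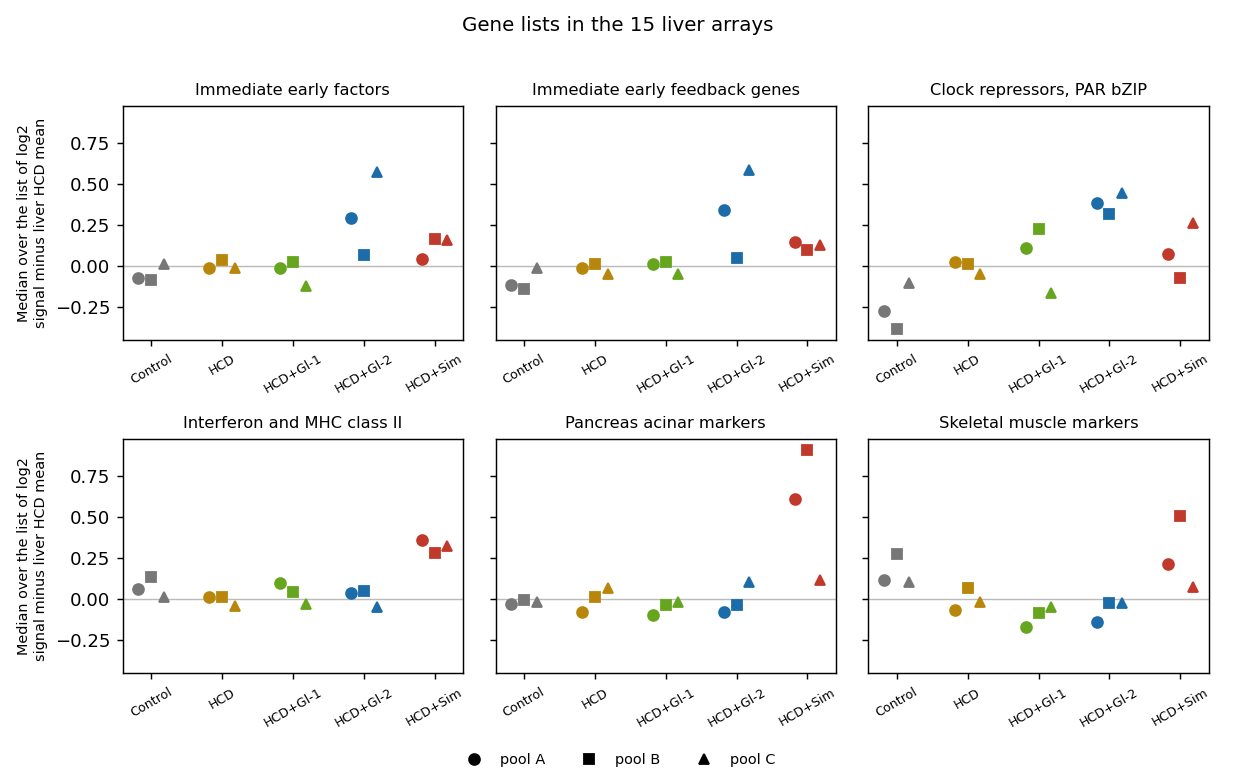
Median over each gene list of the log2 signal minus the gene's liver HCD mean (y axis) in the 15 liver arrays by diet group (x axis), with symbols for pools A, B and C. The immediate early lists are high in Gl-2 pools A and C, the acinar and muscle lists in Sim pools A and B, the interferon and MHC class II list in all 3 Sim arrays (0.28 to 0.36), and the clock list in all 3 Gl-2 arrays (0.32 to 0.45).

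Immediate early genes, which cells switch on within minutes of a stimulus, were higher under Gl-2 in 2 of its 3 arrays. Egr1, a zinc finger factor, was at 10.72, 6.98 and 11.16 in Gl-2 pools A, B and C and at 7.66, 8.03 and 7.33 in HCD+Sim. Pool B was below all Sim arrays while pools A and C were far above them, so the groups overlapped despite a log2 fold change of 1.95 (SE 0.48, limma adjusted p = 0.0284). Fos was at 8.66, 6.55 and 9.59 against 6.68, 6.60 and 6.70 (1.61, limma adjusted p = 0.00421), and Jun, its partner in AP-1, at 9.56, 7.29 and 10.01 against 7.86, 7.97 and 7.47 (1.19, limma adjusted p = 0.0455). Egr2 (1.17) and the nuclear receptor gene Nr4a1 (1.03) had the same order of arrays. With the pool letter as a block Nr4a1 no longer passed (limma adjusted p = 0.06).

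Of 24 immediate early factors 21 were higher under Gl-2 (87.5%, against 39.5% of all genes). The median was 0.26, or 0.15 without Gl-2 pool C, and 5 were DE, all higher (0.122% of all genes). Of 33 feedback genes, which damp or follow such signals, 26 were higher (78.8%), with a median of 0.28. That median was 0.11 without Gl-2 pool C and 0.43 without Gl-2 pool B. The DE feedback genes numbered 4, all higher, among them the kinase gene Plk3 (0.82), Ier2 (0.79) and the MAP kinase phosphatase gene Dusp6 (0.72). In each of these 9 DE genes Gl-2 pool C was the highest and pool B the lowest of the Gl-2 arrays, and pool B lay at or below the highest Sim array. Leaving out Gl-2 pool B kept all 9 DE, leaving out pool A kept 1, and leaving out pool C kept 0. Without Sim pools A, B or C in turn, 3, 6 and 2 of the 9 stayed DE. Pools A and B, the 2 that hold different mice, therefore differed from each other in these genes by more than the groups did, and with pools A and B alone 0 of the 9 were DE. Sik1, a kinase gene induced by the same signals, separated the groups in every array at 9.28, 8.83 and 9.49 against 8.58, 8.44 and 8.60, with 0.66 and thus below the fold threshold. It was singled out after its values were seen. The letters TGACGTCA, the element bound by CREB, occurred in 5 of 41 genes of both lists with a promoter (12.2%, against 2.03% of all symbols), and in 0 of the 6 DE members among them. CCWWWWWWGG, the CArG box with W for A or T, occurred in 4 of the 41 (9.76%, against 1.81% of all symbols). Of the 6 DE members Egr2 alone held it.

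Among heat shock genes the 3 DE members followed the same 2 arrays. Dnajb1, a co-chaperone of Hsp70, was at 9.53, 7.51 and 10.01 in HCD+Gl-2 and at 7.63, 7.5 and 7.26 in HCD+Sim (1.55, SE 0.28, limma adjusted p = 0.00151). Hspa1b, an inducible Hsp70, was at 9.12, 8.00 and 9.43 against 7.95, 7.80 and 8.02 (0.93, limma adjusted p = 0.00575), and Hsph1 gave 0.91. Hspa1a, whose coding sequence is nearly the same as that of Hspa1b, was at 0.84 and did not pass (limma adjusted p = 0.061). Across the 27 heat shock genes 16 were higher (59.3%, against 39.5% of all genes). The DE members numbered 3, all higher (0.122% of all genes), and the median was 0.07, or 0.00677 without Gl-2 pool C. Of the 3, 1 stayed DE without Gl-2 pool A, 1 without Gl-2 pool C, and 0 with pools A and B alone. Relative to HCD the list median was 0.14, -0.07 and 0.18 in Gl-2 pools A, B and C. Pool B was also lowest in HCD+Gl-1 (0.16, -0.03 and 0.22) and Control (0.07, -0.04 and 0.11). The same held for HCD+Sim (0.06, 0.02 and 0.06) and HCD (0.06, -0.05 and 0.02). Both strands of the promoters were searched for GAANNTTC, the paired unit of the heat shock element. It was found in 11 of the 22 genes with a promoter (50%, against 9.04% of all symbols), among them Hspa1b and Hsph1 but not Dnajb1. The stretch of Hspa1b is printed as an example of the inducible members, with the element in capitals beginning 104 bases before the start.
Hspa1b, chr17:34959310-34959367, minus strand: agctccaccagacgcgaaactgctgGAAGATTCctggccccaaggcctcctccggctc

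Several metabolic and regulatory genes were higher under Gl-2, some in every array. Cyp21a1, steroid 21-hydroxylase, was at 7.78, 7.37 and 7.29 in HCD+Gl-2 and at 6.51, 6.39 and 6.48 in HCD+Sim, a log2 fold change of 1.02 (SE 0.15, limma adjusted p = 0.000147), and it was the only higher gene that was also DE on the 15 liver arrays alone. The HCD arrays (6.43, 6.41 and 6.46) lay with simvastatin. Nrg4, a secreted ligand of the epidermal growth factor family, was at 8.00, 7.48 and 8.14 against 7.30, 6.87 and 6.94 (0.84, limma adjusted p = 7.15e-05). Pfkfb3, which makes the allosteric activator of glycolysis, was at 9.01, 7.58 and 9.46 against 7.27, 7.37 and 7.46 (1.32, limma adjusted p = 0.000288). Its pool B lay just above the highest Sim array, the same array order as in the immediate early genes. Foxa3, a hepatocyte transcription factor, gave 0.82, the pseudogene Serpina4-ps1 0.79, and the small nucleolar RNAs Snord14e and Snord85 0.90 and 0.80, all without overlap. Cabyr (0.96), Btbd19 (1.02) and Slc10a2 (0.88), the sodium-dependent bile acid transporter of the ileum and bile ducts, were DE with overlapping groups. Bud13 (0.77), Zbtb16 (0.78) and Lpin1 (0.78) were DE with overlapping groups as well.

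Of the clock repressor genes 1 was DE. Ciart, a repressor of the circadian clock, was at 9.48, 9.15 and 9.44 in HCD+Gl-2 against 8.69, 8.24 and 8.67 in HCD+Sim (0.82, limma adjusted p = 0.012), with HCD at 8.23, 8.53 and 7.62. Usp2 (0.60), Per2 (0.51) and Per1 (0.56) passed the adjusted p without the fold threshold. Of 13 clock repressors and PAR bZIP genes 12 lay higher in HCD+Gl-2 (92.3%, against 39.5% of all genes), with a median of 0.29. In 6 of them every Gl-2 array was above every Sim array (3.45% of all genes), and in the 1 lower member every Gl-2 array was below. Of 9 activators and opposite-phase genes 6 were lower (66.7%, near the 60.5% of all genes), and 0 passed the adjusted p. Npas2 was at -0.52 and Arntl, which encodes BMAL1, at -0.35 (limma adjusted p = 0.2 and 0.0512). In 3 of the 9 every Gl-2 array was below every Sim array, and in 1 every Gl-2 array was above. The hour at which each group was taken was not given in the sources used here, and its part in these values was not tested. CACGTG, the E-box bound by CLOCK and BMAL1, was found in 3 of the 10 clock repressor genes with a promoter (30%, against 8.09% of all symbols). Ciart is shown because it holds 3 of them, in capitals, beginning 116, 58 and 44 bases before the start.
Ciart, chr3:95882242-95882369, minus strand: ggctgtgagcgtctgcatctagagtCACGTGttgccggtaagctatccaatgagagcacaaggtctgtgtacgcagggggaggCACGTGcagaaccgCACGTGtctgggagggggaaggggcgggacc

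Genes of sterol synthesis differed little. Hmgcs1, an early enzyme of the pathway, was at 8.32, 8.49 and 8.30 in HCD+Gl-2 and at 8.62, 8.83 and 8.47 in HCD+Sim. The groups overlapped, and the log2 fold change of -0.27 (95% interval -0.52 to -0.03) did not pass after adjustment (limma adjusted p = 0.344). Sqle, squalene epoxidase, was at -0.28 (-0.55 to -0.01) and did not pass either. Both intervals leave out a difference of 0.7 in either direction. Of 21 cholesterol synthesis genes 11 were higher and 10 lower, the median was 0.02 and 0 were DE. Relative to HCD their median was -0.27 under Gl-2 and -0.22 under simvastatin, from the same HCD arrays. Soat1 (-0.40) and Soat2 (-0.37), which esterify cholesterol, were lower under Gl-2 in every array and passed the adjusted p without the fold threshold (0.00468 and 0.00485 by limma).

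Lipid metabolism outside sterols gave few DE genes. Elovl3, a fatty acid elongase, was lower under Gl-2 at 11.15, 10.79 and 11.19 against 11.85, 12.09 and 11.30 (-0.70, limma adjusted p = 0.0232), and Lpin1, a phosphatidate phosphatase, was higher with overlapping arrays. These were the only DE members of 26 fatty acid and triglyceride synthesis genes, whose median was 0.01. Among 42 fatty acid oxidation and PPAR alpha targets 35 were lower under Gl-2 (83.3%, against 60.5% of all genes) and 0 were DE. Their median of -0.08 ran from -0.16 without Sim pool B to -0.0228 without Gl-2 pool B, passing -0.15 without Gl-2 pool C and -0.0339 without Sim pool C, and was -0.0361 with arrays centred on their medians. Cd36, the fatty acid transporter, was at 8.32, 7.91 and 8.27 against 8.85, 8.78 and 8.75 (-0.63, limma adjusted p = 0.000507) and fell short of the fold threshold. Cyp4a14, a fatty acid hydroxylase, was at 10.74, 9.69 and 11.09 against 11.53, 10.63 and 12.00, with overlap, and did not pass (-0.88, limma adjusted p = 0.223). With the pool letter as a block it did pass (limma adjusted p = 0.0334), and the Gl-2 array was the lower one in each of the 3 pools. Relative to HCD it stood at 1.54 under Gl-2 and 2.42 under simvastatin. Fitm1 (-0.46), a lipid droplet protein, passed the adjusted p alone. Of 26 bile acid genes Slc10a2 alone was DE. Cyp7a1, the first enzyme of bile acid synthesis, was at 0.47 (0.13 to 0.81) and did not pass.

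Genes of the endoplasmic reticulum stress response lay mostly lower under Gl-2, below the fold threshold. Of 23 measured 17 were lower (73.9%, against 60.5% of all genes), 11 had every Gl-2 array below every Sim array (9.17% of all genes), 0 were DE and the median was -0.23. Hyou1, a chaperone, was at 9.63, 9.58 and 9.67 against 10.26, 10.16 and 10.49 (-0.68, limma adjusted p = 0.00171), and Pdia4, a disulfide isomerase, gave -0.48 (limma adjusted p = 0.00329). Derl3, of the degradation route for misfolded proteins, was at -0.69 and did not pass (limma adjusted p = 0.12). Gclc, the rate-limiting enzyme of glutathione synthesis, was at -0.38 (limma adjusted p = 0.00445), and 0 of 31 conjugation and NRF2 genes were DE.

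Acute phase genes did not separate the 2 groups, and some of them split the pools within both. Saa2, serum amyloid A, was at 10.97, 11.72 and 6.74 in HCD+Gl-2 and at 11.95, 11.24 and 7.12 in HCD+Sim. Orm2 was at 10.09, 10.10 and 7.42 against 10.83, 11.27 and 6.90. In both groups pools A and B were more than 2 log2 units above pool C, and pool C lay near the HCD arrays, where Saa2 was at 7.29, 6.91 and 7.48. Of 25 acute phase genes 0 were DE. Pool C lay below both other pools in 15 of the 25 under Gl-2 and in 21 under simvastatin, although it was stated to be a mix of the same RNA. It lay above both in 7 under Gl-2 and in 1 under simvastatin. The share over all genes was not counted. The list median relative to HCD was 0.15, 0.28 and -0.03 in Gl-2 pools A, B and C, and 0.23, 0.37 and -0.07 in the Sim pools. Among the 36 genes of all those tested in which Gl-2 pools A and B differed by over 1, pool C lay between them in 9. Among the 14 such genes of HCD+Sim it lay between them in 11.

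Markers of the liver's own cells gave few DE genes. Of 19 hepatocyte markers Foxa3 alone was DE and the median was 0.02. Of 12 endothelial markers 11 were lower (median -0.15, 0 DE), as were 12 of 14 stellate cell and fibroblast markers (median -0.15, 0 DE). Of 10 cholangiocyte markers 8 were lower (median -0.10, 0 DE). Every Gl-2 array lay below every Sim array in 7 of the endothelial and 5 of the stellate cell and fibroblast markers. The same held for 1 cholangiocyte marker and for 9.17% of all genes. Over all genes 60.5% were lower under Gl-2. Of 10 neutrophil markers 8 were higher (80%, against 39.5% of all genes, with a median of 0.07 and 0 DE), and 0 of 7 erythroid markers were DE. Of 25 squamous epithelium markers the defensin gene Defb5 alone was DE, at 3.95, 3.72 and 4.26 against 4.71, 4.82 and 4.69 (-0.76, limma adjusted p = 0.026). These Defb5 signals were dim, all below log2 6. Of 16 adipose markers Nrg4 alone was DE. Pfkfb3 was the single DE member of 24 glucose metabolism genes (median 0.04). Of 23 cytokine and NF-kappaB genes 0 were DE, as were 0 of 15 LXR and sterol export genes, 0 of 14 sterol sensing and uptake genes and 0 of 16 lipid droplet genes.

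The same comparison was made in kidney and brain, from the same fit. In kidney 49 genes were DE (0.222%) and in brain 2. The liver difference differed from the kidney difference in 51 genes (0.231%), of which 21 belong to the 63. From the brain difference it differed in 11 genes (0.0498%), of which 10 do. These tests contain the same liver arrays by which the 63 were chosen, so the overlaps are partly fixed by that choice. Cyp2b9 was at 0.13 in kidney and at 0.00 in brain, and the liver difference was larger by -2.91 and -2.79 (limma adjusted p = 1.17e-07 and 7.69e-07). Of the 12 DE acinar genes 7 differed from kidney, among them Amy2a5 at -2.05 and Ctrb1 at -1.88, and 1 differed from brain. Cyp21a1 was at -0.04 in kidney, with a tested difference of 1.06 (limma adjusted p = 0.0168).

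Immediate early genes were higher under Gl-2 in kidney too. There, Egr1 was at 10.73, 10.44 and 10.80 under Gl-2 against 7.62, 7.88 and 6.8 under simvastatin, with pool B again the lowest Gl-2 array but above every Sim array, and the kidney log2 fold change was 3.22. Nr4a1 was at 10.47, 10.05 and 10.62 against 7.13, 7.45 and 6.84 (3.24). The difference between liver and kidney passed in 2 of the 9 DE genes. Liver minus kidney was -2.21 for Nr4a1 and -1.78 for Plk3 (limma adjusted p = 0.00269 and 0.00124), while that of Egr1 (-1.28) and Fos (-0.75) did not pass. Of the 9 DE immediate early genes of liver 7 were DE in kidney as well. Gm29779 had the largest difference between the tissues at -3.01, from 0.11 in liver and 3.12 in kidney. For the class II and interferon genes the kidney values lay on the same side: Tgtp2 was at -0.74 in kidney (limma adjusted p = 2.27e-06), Gbp2 at -0.50 and Cd74 at -0.40, and 0 of the 6 genes differed between liver and kidney by both thresholds, though H2-Ab1 passed by p alone (-0.49, limma adjusted p = 0.0425). BC023105 was at -1.55 in kidney (limma adjusted p = 1.21e-07). In brain Tgtp2 was at 6.03, 6.26 and 6.21 under Gl-2 against 6.62, 6.42 and 6.59 under simvastatin. Cxcl9 was not lower there, at 5.88, 6.09 and 6.15 against 5.85, 5.90 and 5.78. The median of the interferon and MHC class II list in brain was -0.01.

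**Figure D5:**
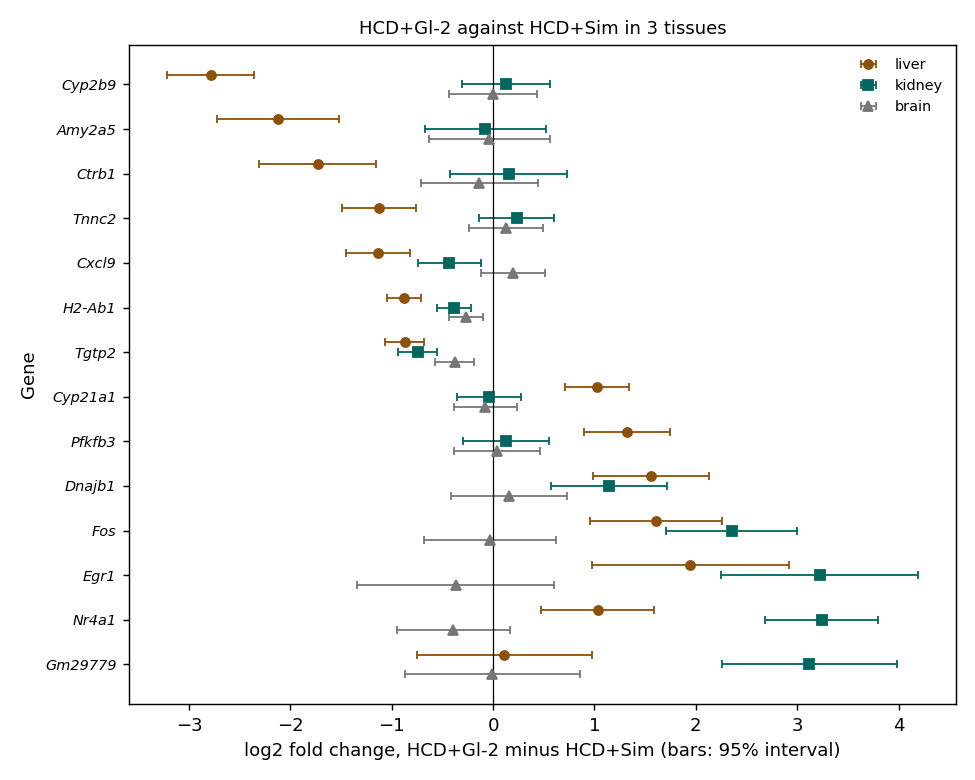
Log2 fold change HCD+Gl-2 minus HCD+Sim (x axis, bars are 95% intervals from the 45-array fit) for 14 genes (y axis) in liver, kidney and brain. Cyp2b9, the acinar genes and Cyp21a1 have intervals that leave out 0 in liver alone among the 3 tissues. Tgtp2 lies on the same side in liver, kidney and brain, and Nr4a1 and Gm29779 are far higher in kidney than in liver.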

How the data were processed

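RNA pools were hybridized to Affymetrix mouse gene arrays, 3 arrays for each of 15 groups (3 tissues and 5 diets). The authors deposited log2 values, made by RMA with quantile normalization, a ComBat batch correction whose batches are not given in the sources used here, and 1 probe set per gene; tool versions were not given in the sources used here. The table holds 22080 genes and 45 arrays, and 13 of its names had been turned into dates. Files give no read depth, so the number of arrays limits the precision.

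Groups came from the labels. All 45 arrays entered 1 linear model, with a mean for each of the 15 groups, in limma 3.58.1 and R 4.3.3 (lmFit, contrasts.fit and eBayes, 30 residual and 7.34 prior degrees of freedom), with Benjamini-Hochberg adjustment over all genes. Differences are HCD+Gl-2 minus HCD+Sim, and DE means an absolute log2 fold change over 0.7 with an adjusted p of at most 0.05. Intervals are 95% intervals of that fit. Because pool C shares mice with pools A and B, p-values measure the spread between arrays and can be too small, and an exact permutation of 3 against 3 arrays cannot go below 0.1. Same-lettered pools of the 2 groups deviated together (correlations of 0.195, 0.115 and 0.177 for A, B and C), the pool letter coming from the labels' replicate names, so a fit with the letter as a block was also made. The script was tested on simulated data.

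Named genes were up to 15 separated DE genes per direction by size, overlapping DE genes among the 15 largest, list members (up to 5 by size and every DE member), sterol synthesis genes fixed by name, and up to 5 genes called between tissues; list members beyond the first 5 that passed the adjusted p, and Cyp2b10, Ly6a and Sik1, were chosen after their values were seen. The 34 gene lists and the comparison itself were chosen with earlier results of these data known. Some genes are not reported here. Promoters came from RefSeq (GRCm38.p6). Alternatives were other sets of arrays, each array left out, the block, a filter on dim genes, other normalizations, moderation and thresholds.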

Additional observations from a re-analysis of the deposited data

Results flagged for a closer look

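Genes were marked where the liver difference between HCD+Gl-2 and HCD+Sim departed from that of another tissue in the limma contrast of both differences. Against kidney these were Gm29779 at -3.01 (limma adjusted p = 0.0141), Cyp2b9 at -2.91 (1.17e-07), Nr4a1 at -2.21 (0.00269), Amy2a5 at -2.05 (0.0163) and Ctrb1 at -1.88 (0.0224). For Gm29779 and Nr4a1 the size came from kidney, where all 3 Gl-2 arrays stood above all 3 Sim arrays. For Cyp2b9 and both digestive enzymes it came from liver. Against brain they were Cyp2b9 at -2.79 (limma adjusted p = 7.69e-07), Amy2a5 at -2.09 (0.0288), Cxcl9 at -1.33 (0.00268), the troponin gene Tnnc2 at -1.25 (0.0317) and Cyp21a1 at 1.1 (0.0288).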

How the results depend on the processing

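The number of DE genes, 63 (27 higher, 36 lower), depended most on the arrays in the fit. It was 11 on the 15 liver arrays (1 higher, 10 lower), 6 on the 6 arrays alone (0 higher, 6 lower) and 11 after renewed quantile normalization over liver (3 higher, 8 lower). With pools A and B only it was 69, with 6 higher and 63 lower, and 38 genes were shared with the 63. Without a fold threshold it was 289 (84 higher, 205 lower). A filter on dim genes, at log2 6 or more in 3 or more liver arrays, gave 53 DE genes. It let 51 of the 63 into the test, and all 51 stayed DE. Leaving out each array in turn gave 47 to 95 DE genes and 8 to 53 higher ones; the count of 95 came without Gl-2 pool B and the 8 without Gl-2 pool C, and without Gl-2 pool A 13 were higher. In all 6 of these fits 23 of the 63 were DE. The replicate block gave 63 DE genes, with Nr4a1 and Lyz1 lost and 2 genes gained, Cyp4a14 among them; no other named call changed. Leaving out each array, the interferon and MHC class II median ran from -0.24 (without Sim pool C) to -0.16 (without Sim pool A). The cholesterol synthesis median ran from -0.0983 (without Gl-2 pool B) to 0.0916 (without Gl-2 pool C), and was -0.04 without Sim pool C. The ER stress median was -0.19 with arrays centred on their medians and -0.18 with quantile normalization over 45 arrays, an alternative chosen after seeing the data. No named gene changed direction among its calls, and the cause of these shifts was not tested.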

Other observations

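Pvalb, the calcium buffer of fast muscle, was DE on the 15 liver arrays alone (-0.94, limma adjusted p = 0.0203) and not in the fit over 45 arrays. It was the only gene of the 11 called there that is not among the 63. Lcn2, an acute phase gene, stood at 11.14, 11.81 and 9.02 in HCD+Gl-2 and at 12.23, 12.60 and 9.02 in HCD+Sim, with pool C lowest in both groups.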
